A study of Mus musculus with 48 samples.

Results

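Mild collagen-induced arthritis was compared with the healthy state within a single experiment, in 5 organs of the same mice. The members are all annotated cells whose sample name carries the prefix CIA and not 2CIA, 7577 cells in 29 samples out of 12096 annotated cells in 48 samples. The 3 arthritic mice were S5, S6 and S8, with labelled arthritis scores of 4 to 5, 3 to 4 and 2 to 3, and the 3 healthy mice, scored 0, were H4, H6 and H7. Lung, muscle, skin and spleen came from all 6 mice, whereas the healthy joint came from H4 and H7 only. The severely arthritic mice S1, S2 and S3, each scored 8, and the healthy mouse H3 carried the prefix 2CIA and entered none of the tests. The prefixes are not explained in the labels and are taken here as names of experiments.

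All animals were male DBA1/J mice of 8 to 12 weeks. Arthritis was induced with 100 µg of bovine type II collagen in complete Freund's adjuvant, injected into the skin at the base of the tail, and boosted on day 20 in incomplete adjuvant. The healthy mice were injected with phosphate-buffered saline in the same way, so that the response to collagen, the response to adjuvant and the arthritis itself cannot be told apart. The organs were cryopreserved, dissociated with enzymes and profiled by Seq-Well, in which single cells fall into microwells with barcoded beads and each captured transcript is counted by a unique molecular identifier (UMI). Spleen cells underwent red cell lysis, and so did the muscle cells of H6, H7, S6 and S8 but not those of H4 and S5.

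Collagen-induced arthritis is driven by T cells and antibodies against type II collagen, and in the inflamed joint neutrophils, monocytes and macrophages accumulate. Interferons, released by infected or activated cells, bind receptors that signal to a large set of interferon-stimulated genes, and this response can be read in blood and organs far from the site where interferon was made. Neutrophils carry granule proteins whose transcripts are made largely during maturation in the bone marrow. Macrophages and B cells present antigen on class II molecules of the major histocompatibility complex (MHC).

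UMIs were summed over the cells of each mouse and organ and are given as CPM, which divides each sum by the size of its library, with sizes adjusted by the trimmed mean of M values (TMM), except that sums over gene lists and levels within cell types use plain library sizes. The 29 sums held from 17748 UMIs, in the 30 lung cells of S8, to 1645734 UMIs, in the 1989 muscle cells of S6. A count of 0 allows up to 3 UMIs, which is 1.82 CPM in that muscle library and 169 CPM in that lung library. Differences are log2 fold changes, arthritic over healthy, with the standard error (SE) and the Benjamini-Hochberg adjusted p of the quasi-likelihood test in edgeR. The mouse is the replicate, so the p-values measure the spread between these mice, and in summed samples fewer cells of a type and less RNA per cell cannot be told apart. Organs share mice and are not independent of each other. Mitochondrial transcripts made up 2.89% to 14.2% of the UMIs.

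Organ labels were checked against marker genes. The summed level of 6 alveolar epithelium genes was 13617 to 99787 CPM in lung and at most 15 CPM in any other organ, although no epithelial lung cell type exists in the annotation. The 11 epidermal keratins summed to 6602 to 10061 CPM in skin. Basal III cells, whose markers include Krt5 and Krt14, were also found in joint. They made up 19.5% of the joint cells of H4 and 1.39% of those of H7, against 0% to 0.209% in arthritic joints. The joint comparisons include these cells. In muscle, the 10 skeletal muscle fibre genes summed to only 52 to 583 CPM, against 52 to 269 CPM in spleen, so fibre transcripts did not set the muscle libraries apart, and haemoglobin made up 11357 to 220252 CPM of them.

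The library labelled muscle of S8 went against its label and resembled the spleen of the same mouse. It shared 34 of its 262 cell barcodes with the 293 cells of the spleen of S8, while no other pair of the 29 libraries shared more than 1. All 34 shared barcodes carried the same cell type label in both libraries, and a median of 94.9% of their UMIs were in common, never below 92.5%. The expression of cells with the same barcode correlated at a median of 0.778, against 0.351 for other cells of the same type. The library counted 150 B cells, 47 NK cells and 27 monocytes, close to the 157, 61 and 36 of that spleen, and 0 fibroblasts, endothelial cells and myocytes. Its collagen and matrix genes summed to 37 CPM, against 828 to 21479 CPM in the other muscle libraries. Muscle results are therefore given with it and without it, which leaves 2 arthritic muscles. The stacked bars of cell types show this library beside the others.

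**Figure D1:**
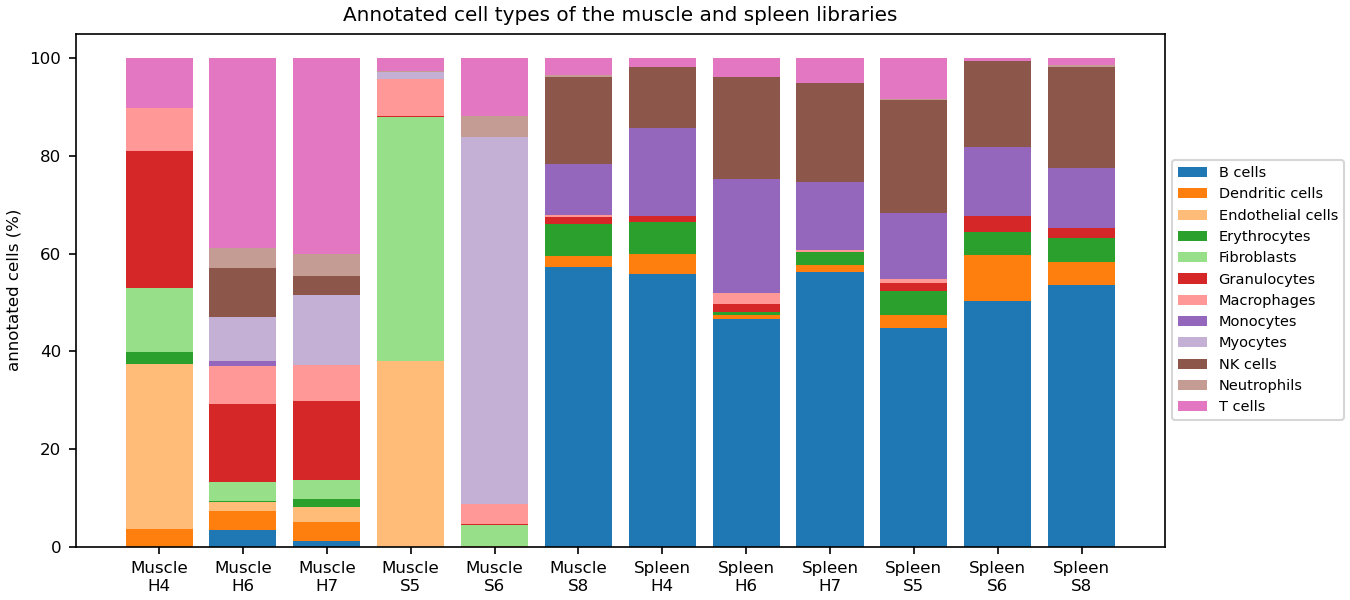
Share of annotated cells (%, stacked bars) by cell type in the muscle and spleen libraries, with 1 bar a mouse, healthy mice H4, H6 and H7 and arthritic mice S5, S6 and S8. The bar of the library labelled muscle of S8 has the make-up of a spleen, with 150 B cells among 262 cells, and the granulocyte share of muscle is 15.9% to 28% in healthy mice and 0.151% to 1.53% in the arthritic ones.

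Few single genes passed the test in an organ. In lung, 8 of 563 tested genes (1.42%) differed at an adjusted p below 0.05, of which 7 were higher (1.24%) and 1 was lower (0.178%) in arthritic mice. In joint, 1 of 1341 genes (0.0746%) passed, and it was lower. No gene passed in muscle (0 of 4266), skin (0 of 1831) or spleen (0 of 2850), each with a share of 0%. At an unadjusted p below 0.05, edgeR gave 34 higher (0.797%) and 91 lower (2.13%) genes in muscle, 72 (3.93%) and 82 (4.48%) in skin, and 101 (3.54%) and 87 (3.05%) in spleen. In joint these counts were 70 (5.22%) and 27 (2.01%), and in lung 33 (5.86%) and 20 (3.55%). DESeq2, with its own adjusted p below 0.05, called 20 genes in muscle, 3 in skin and 11 in spleen. In joint, 10.7% of the tested genes were higher in every arthritic mouse than in every healthy one and 10.1% were lower. The corresponding shares were 8.7% and 6.04% in lung, 3.91% and 5.23% in muscle, 7.7% and 8.08% in skin, and 7.89% and 6.91% in spleen. Without the library labelled muscle of S8, 0 of 5567 muscle genes passed and the shares were 9.93% and 8.73%. These shares are the background against which the lists of genes below are read.

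Interferon-stimulated genes were higher in arthritic mice outside the skin. The summed level of 30 such genes was 869 and 890 CPM in the healthy joints of H4 and H7, and 3099, 1927 and 1354 CPM in the joints of S5, S6 and S8. In lung it was 438 to 749 CPM in healthy and 1651 to 3493 CPM in arthritic mice, in muscle 1196 to 1499 against 2344 to 4529 CPM, and in spleen 1427 to 1644 against 2882 to 3392 CPM. The groups did not overlap in these 4 organs. In skin the sums were 700 to 823 CPM in healthy and 445 to 766 CPM in arthritic mice, and the ranges overlapped. Of the members tested in each organ, 7 of 11 in spleen, 5 of 15 in muscle, 2 of 4 in joint and 2 of 2 in lung were higher without overlap, and none was lower without overlap in these 4 organs. Their median log2 fold change was 1.43 in spleen, 0.69 in muscle, 1.32 in joint and 2.62 in lung, where the medians of all tested genes lay between -0.03 and 0.06. Without the library labelled muscle of S8, 6 of 20 members were higher without overlap in muscle and the median was 0.73. The filter on low counts keeps a gene that is high enough in 1 group alone. Irf7, Phf11b and Rsad2 in spleen and Ifi27l2a in lung were low in healthy mice and entered through the arthritic ones. Counts over tested members, here and in the lists below, are therefore descriptions, whereas the sums over all 30 genes do not depend on this filter.

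Ifi27l2a (chr12:103442167-103443680, minus strand, GRCm38), an interferon-inducible gene of a small family of mitochondrial membrane proteins, led this group. In lung it measured 145, 166 and 0 CPM in H4, H6 and H7, and 1064, 986 and 2048 CPM in S5, S6 and S8. It rose by 3.35 on the log2 scale (SE 0.52, adjusted p = 0.00884, edgeR), and all 3 arthritic lungs lay far above the 3 healthy ones. The value of 0 in H7 allows up to 87.6 CPM. In spleen the healthy mice had 185, 143 and 352 CPM and the arthritic mice 1207, 1202 and 844 CPM, a log2 fold change of 2.25 (SE 0.39, adjusted p = 0.245). In muscle the healthy levels were 94.8, 86.3 and 89.4 CPM, and S5 and S6 reached 1135 and 470 CPM. The library labelled muscle of S8 had 739 CPM, and the log2 fold change was 3.11 both with it (adjusted p = 0.178) and without it (adjusted p = 0.491). In joint, 90.5 and 88.1 CPM stood against 1297, 168 and 465 CPM (log2 fold change 2.88, SE 0.92, adjusted p = 0.382), with S6 the lowest arthritic joint. Ifi27l2a was therefore higher without overlap in 4 organs, and passed the test in lung only. Its close copy Ifi27l2b could have taken up or given part of these reads. Skin had too few UMIs for the test, with 51.9, 26.9 and 48.1 CPM in healthy and 113, 0 and 85.7 CPM in arthritic mice. The value of 0 in the skin of S6 allows up to 111 CPM.

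A higher Ifi27l2a level was also measured in the UMIs of several cell types, given here as CPM of that type's own UMIs for mice with at least 10 such cells. In spleen monocytes it was 116 to 122 CPM in healthy and 1223 to 1756 CPM in arthritic mice. Spleen B cells had 73 to 249 CPM in healthy and 608 to 737 CPM in arthritic mice, and spleen NK cells 109 to 439 against 722 to 977 CPM. The 3 lung macrophage samples of healthy mice had 0 to 119 CPM, and those of arthritic mice 520 to 1218 CPM. Muscle fibroblasts and muscle macrophages, each from S5 and S6 only, had 804 to 1943 CPM and 775 to 1789 CPM, against 98 to 230 CPM and 77 to 121 CPM in healthy mice. Joint macrophages had 56 to 84 CPM in healthy mice and 753 to 2194 CPM in S5 and S8, while S6 had only 2 such cells. In 8 of 9 pairs of organ and cell type the arthritic mice measured were all above the healthy ones. The exception was the basal III cells of skin, with 10 to 82 CPM in healthy and 0 to 74 CPM in arthritic mice. Skin fibroblasts, where UMIs of this gene were few, had 0 to 24.8 CPM in healthy mice and 84.4 to 111 CPM in S5 and S8. The part of transcripts taken up from other cells was not tested for these values. The plot by cell type shows each of these mice.

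**Figure D2:**
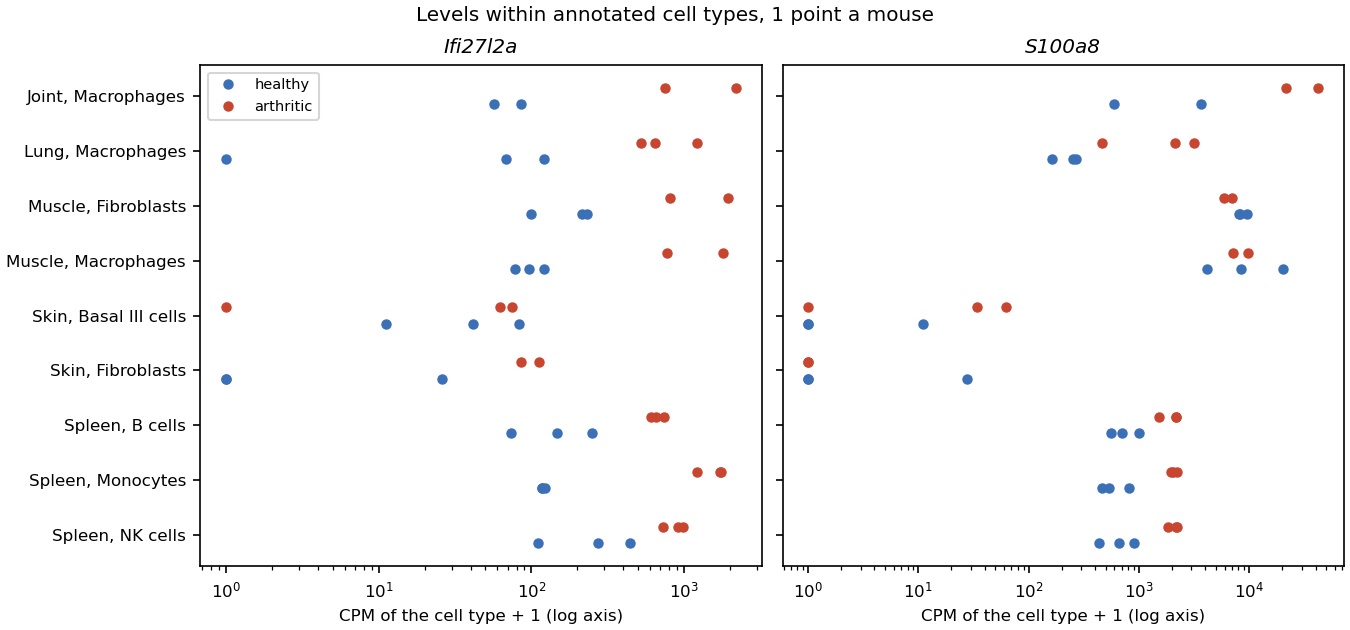
Level of Ifi27l2a and S100a8 within annotated cell types of each organ, in CPM of the type's UMIs plus 1 on a log axis, with 1 point a mouse, healthy and arthritic. Only mice with at least 10 cells of a type are shown, so that some pairs lack an arthritic mouse. Among the mice shown, Ifi27l2a is higher in every arthritic mouse in 8 of 9 pairs of organ and cell type. S100a8 in the spleen lies at similar levels in B cells, monocytes and NK cells of the same group.

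Other interferon-inducible genes separated the groups in fewer organs. Ifi202b, a DNA-binding member of the p200 family that was not on the list, had 500, 580 and 695 CPM in healthy lungs and 1452, 1151 and 1955 CPM in arthritic lungs (log2 fold change 1.36, adjusted p = 0.0824). In spleen it had 62.8, 64.9 and 41.9 CPM against 212, 288 and 175 CPM (log2 fold change 1.96, adjusted p = 0.385). The groups did not overlap in either organ, while those of joint, muscle and skin overlapped. Averaged over lung, muscle, skin and spleen of each mouse, the Ifi202b log2 CPM was 7.62 in healthy and 8.76 in arthritic mice, the smallest p of this test (log2 difference 1.14, SE 0.22, limma adjusted p = 0.124). Ifitm3, a membrane protein that restricts virus entry, was higher without overlap in joint (log2 fold change 1.30), lung (1.89) and spleen (1.84), with adjusted p of 0.703, 0.116 and 0.406. In skin it went the other way, from 519, 698 and 722 CPM in healthy to 235, 343 and 414 CPM in arthritic mice (log2 fold change -1.03, adjusted p = 0.345). Skin was thus the organ in which the summed interferon-stimulated genes did not lie higher in arthritic mice. However, Ifitm3 was the only member of the list with enough UMIs to be tested there, and Ifi27l2a was higher within skin fibroblasts.

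In spleen, 4 further members lay above all healthy mice in each arthritic mouse, with adjusted p of 0.706 for each. Trim30a, an interferon-inducible member of the tripartite motif family, had 72.2, 13 and 83.9 CPM in healthy and 169, 240 and 229 CPM in arthritic spleens (log2 fold change 1.77). Phf11b had 37.7, 38.9 and 41.9 CPM against 82.2, 144 and 139 CPM (1.59). Irf7, a transcription factor that amplifies the type I interferon response, had 44, 26 and 16.8 CPM against 130, 86.5 and 96.4 CPM (1.71). Rsad2, the antiviral enzyme viperin, had 34.6, 26 and 41.9 CPM against 73.6, 106 and 108 CPM (1.43). Irf7 and Rsad2 were picked for description after their values were seen. Irf7 was also higher without overlap in muscle (log2 fold change 1.01, and 1.13 without the library labelled muscle of S8), where the groups of Rsad2 overlapped.

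The sequences before the start of 3 of these spleen genes are shown because they hold the core of the interferon-stimulated response element, a sequence known from the promoters of genes that interferon switches on. The motif searched was GAAANNGAAA on either strand, which reads TTTCNNTTTC on the other, within the 250 bases before the start of the gene in RefSeq (GRCm38.p6). The letters that match are in capitals, and the sequences run 5′ to 3′ in the direction of the gene.
Phf11b (chr14:59341331-59341580, minus strand): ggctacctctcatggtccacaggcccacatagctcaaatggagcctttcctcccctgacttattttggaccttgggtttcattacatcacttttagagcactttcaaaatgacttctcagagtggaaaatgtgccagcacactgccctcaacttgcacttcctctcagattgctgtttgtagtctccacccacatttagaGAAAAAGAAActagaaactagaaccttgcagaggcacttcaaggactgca
Trim30a (chr7:104465194-104465443, minus strand): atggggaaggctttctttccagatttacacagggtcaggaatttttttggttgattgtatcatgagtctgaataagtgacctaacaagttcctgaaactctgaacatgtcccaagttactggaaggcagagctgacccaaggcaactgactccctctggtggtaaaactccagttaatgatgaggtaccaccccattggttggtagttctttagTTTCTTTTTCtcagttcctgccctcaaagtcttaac
Rsad2 (chr12:26456453-26456702, minus strand): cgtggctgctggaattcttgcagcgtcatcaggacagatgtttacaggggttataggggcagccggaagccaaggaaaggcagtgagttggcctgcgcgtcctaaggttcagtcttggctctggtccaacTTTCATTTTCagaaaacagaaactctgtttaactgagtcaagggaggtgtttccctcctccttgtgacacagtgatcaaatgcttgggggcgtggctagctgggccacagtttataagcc
The match began 50 bases before the start in Phf11b, 36 bases in Trim30a and 120 bases in Rsad2. A second entry for Trim30a, at chr7:104446126-104446375, had no match. Among all 32851 promoters of this length, 978 (2.98%) held the motif. Of the 30 interferon-stimulated genes, 22 had an entry and 9 held it. The motif was in 0 of 7 class II genes and 0 of 15 neutrophil genes with an entry. At the share of all promoters, lists this short would mostly hold no match, so these zeros give no contrast. Irf7, Ifitm3 and Ifi202b had no match in this window, and Ifi27l2a had no entry. A match describes letters and is not evidence of binding in these organs.

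**Figure D3:**
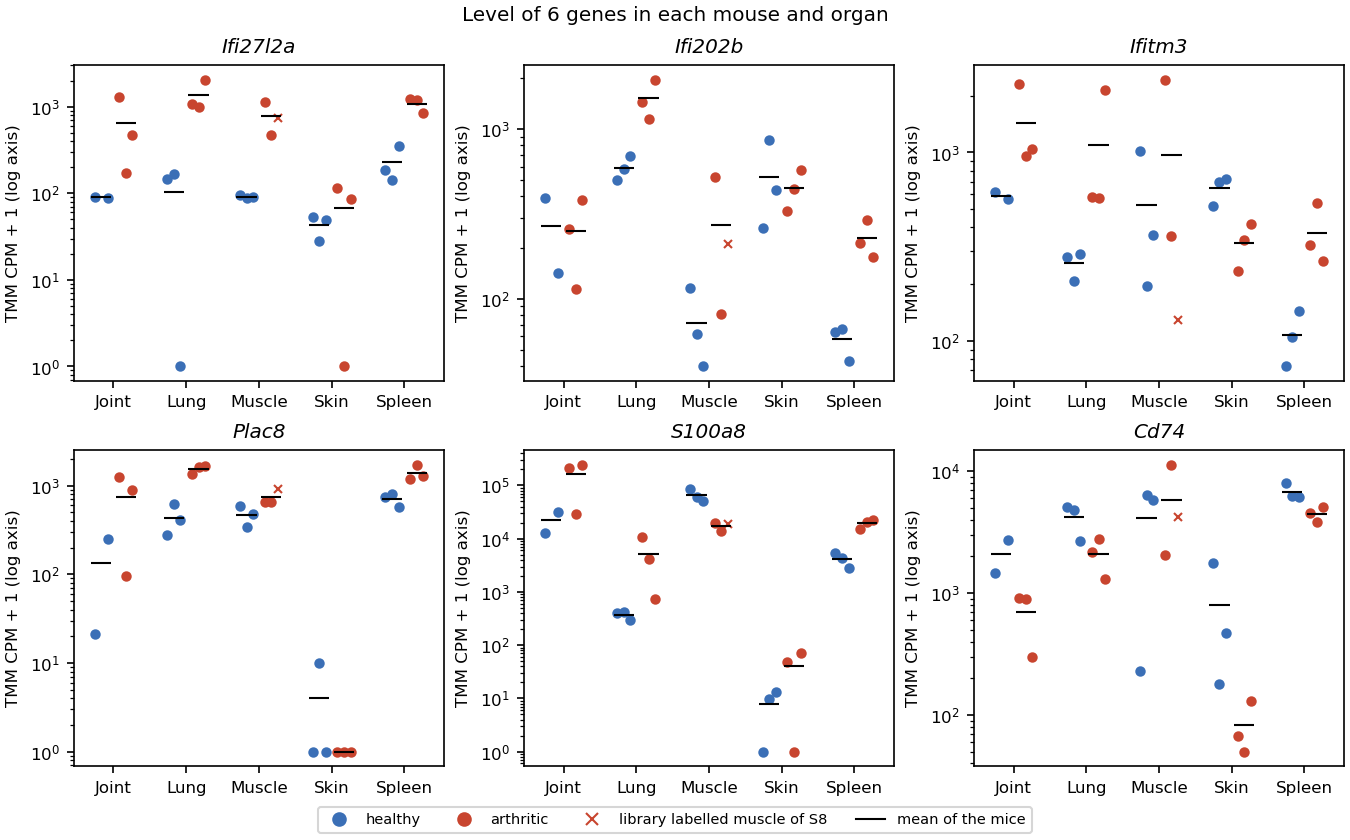
Level of selected genes in each mouse and organ (TMM-scaled CPM, log axis), with 1 point a mouse, a line at the mean of the mice, healthy and arthritic mice in separate colours and a cross for the library labelled muscle of S8. Ifi27l2a separates the groups in joint, lung, muscle and spleen, and S100a8 is higher in arthritic spleens (15118 to 22568 CPM) and lower in arthritic muscles (14037 to 20005 CPM).

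Lung held most of the genes that passed the test, and macrophages made up 84.4% of the cells in both groups. Beside Ifi27l2a, the genes that rose in arthritic lungs were S100a8, Clec4e, Plac8, Ccl2, Wfdc17 and Cxcl2. Clec4e (chr6:123281789-123289870), the macrophage receptor Mincle that binds glycolipids of mycobacteria, had 52.6, 82.9 and 116 CPM in healthy and 726, 863 and 652 CPM in arthritic lungs (log2 fold change 3.34, SE 0.61, adjusted p = 0.0148). Within lung macrophages Clec4e was 39 to 65 CPM in healthy and 406 to 562 CPM in arthritic mice. Plac8 (chr5:100553725-100572245), a small cysteine-rich protein of myeloid and lymphoid cells, had 276, 622 and 406 CPM against 1355, 1644 and 1676 CPM (1.92, SE 0.38, adjusted p = 0.0262). Each arthritic lung lay above each healthy lung for both genes.

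Of 7 chemokines tested in lung, 6 had a higher and 1 a lower value in arthritic mice, and 2 rose. Ccl2, which attracts monocytes, had 776, 622 and 1101 CPM in healthy and 1790, 2260 and 3166 CPM in arthritic lungs (log2 fold change 1.53, adjusted p = 0.037). Cxcl2, which attracts neutrophils, had 2934, 2859 and 3186 CPM against 6919, 5137 and 5680 CPM (0.99, adjusted p = 0.0417). Of the 7, 4 were higher without overlap and none lower without overlap, with a median log2 fold change of 1.08. Wfdc17, a secreted protein with a protease inhibitor domain that macrophages make, had 3026, 3522 and 3708 CPM against 7790, 7068 and 6425 CPM (1.07, adjusted p = 0.0275), and was picked for description after its values were seen.

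Genes of the resident alveolar macrophage pointed the other way. The 8 alveolar macrophage markers summed to 2530 to 3364 CPM in healthy and 1312 to 1521 CPM in arthritic lungs. Ear2, an eosinophil-associated ribonuclease, had 1105, 497 and 1043 CPM against 290, 288 and 279 CPM (log2 fold change -1.64, adjusted p = 0.095). Chil3, a chitinase-like protein, had 1316, 1036 and 985 CPM against 677, 452 and 279 CPM (-1.20, adjusted p = 0.16). Of the 4 markers tested, 3 were lower without overlap. Atpif1, the inhibitor of mitochondrial ATP synthase, was the gene that fell in lung, from 1132, 1285 and 637 CPM to 387, 205 and 93.1 CPM (-2.06, SE 0.46, adjusted p = 0.0417), while its log2 fold change in the other 4 organs lay between -0.06 and 0.16.

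The lung calls depended on single mice. Leaving out H4 left 0 genes past the threshold, leaving out S6 left 2, leaving out S5 left 5 and leaving out H7 gave 19. Ifi27l2a, S100a8, Clec4e, Plac8, Ccl2, Cxcl2 and Atpif1 kept their direction under all the alternatives in which they were fitted. Ifi27l2a and S100a8 passed in 14 of 15 alternatives, Clec4e in 12, Plac8 in 11, Ccl2 in 8 and Cxcl2 in 5. Atpif1 passed in 8 of 14.

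Neutrophil genes lay higher in the spleens and lower in the muscles of arthritic mice. S100a8 (chr3:90668978-90670035), a subunit of the calcium-binding protein calprotectin that neutrophils hold in large amounts, had 5352, 4295 and 2827 CPM in healthy and 15118, 20899 and 22568 CPM in arthritic spleens (log2 fold change 2.23, SE 0.28, adjusted p = 0.0875). In muscle it had 86386, 59444 and 52036 CPM in healthy mice, 20005 and 14037 CPM in S5 and S6 and 18591 CPM in the library labelled muscle of S8 (-1.91, adjusted p = 0.783). The muscle difference was -1.98 without that library. Neither organ showed overlap between the groups. In lung, S100a8 rose from 408, 414 and 290 CPM to 10596, 4109 and 745 CPM (3.78, SE 0.64, adjusted p = 0.0108), with a wide spread among the arthritic mice. The joint had 12744 and 32283 CPM in healthy mice and 210836, 28967 and 244269 CPM in arthritic mice (2.84, adjusted p = 0.703), where S6 lay between the healthy values.

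Over the list of 17 neutrophil genes, the signs in spleen and muscle were opposite. In spleen all 7 tested members were higher without overlap in arthritic mice, with a median log2 fold change of 2.23. In muscle all 12 tested members were lower, with a median of -2.20, and without the library labelled muscle of S8 all 13 tested members were lower, with a median of -2.11. Ngp, a neutrophil granule protein, had 368, 337 and 16.8 CPM in healthy and 887, 2028 and 1302 CPM in arthritic spleens. In muscle Ngp had 10500, 8649 and 7988 CPM against 2213, 1553 and 1542 CPM (log2 fold change -2.35, adjusted p = 0.233). Elane, a serine protease of neutrophil precursors, had 531, 233 and 185 CPM in healthy muscles and 15.8, 3.92 and 0 CPM in the libraries of S5, S6 and S8 (-5.55, adjusted p = 0.178). Prtn3, proteinase 3 of the same granules, had 152, 104 and 59.6 CPM against 6.32, 7.27 and 0 CPM (-4.05, adjusted p = 0.178). None of the muscle members passed the adjusted threshold.

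The test of the difference between organs bore on these genes only when the filter was applied over the 24 samples of lung, muscle, skin and spleen. Of 471 genes that passed the filter in each of the 4 organs, 0 had an effect that differed between organs (0%, edgeR, 18 genes at an unadjusted p below 0.05), with the smallest adjusted p, 0.20, for the lysozyme gene Lyz2. With the filter over the 24 samples, 7 of 4324 genes differed between organs, namely S100a8 (adjusted p = 0.00697), Ly6c2 (0.0106), Camp (0.0160), S100a9 (0.0179), Fcnb and Ngp (0.0231 each) and Chil3 (0.0454). Fcnb was not otherwise singled out and is named because the count is small. All 7 are genes of neutrophils, monocytes or macrophages.

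The share of granulocyte-labelled cells lay in the direction of these genes in muscle, joint and spleen. These cells were 15.9% to 28% of the cells in healthy muscles and 0.151% to 1.53% in arthritic ones, 3.14% and 9.72% against 14% to 54.2% in joints, and 0% to 1.5% against 1.67% to 3.36% in spleens. In lung they were 0% in every mouse but S5 (1.64%), and cells with the separate neutrophil label were 0% in healthy lungs and 1.64%, 1.56% and 0% in S5, S6 and S8. Neutrophil-labelled cells of muscle overlapped between the groups, with 0%, 4.05% and 4.45% in healthy mice and 0.287%, 4.32% and 0.382% in the libraries of S5, S6 and S8. Granulocyte-labelled cells were then left out, while neutrophil-labelled cells stayed in. The S100a8 log2 fold change became -0.31 in muscle, 1.31 in spleen, 3.26 in lung and 3.01 in joint. Its muscle difference was thus much smaller, and those of lung and joint were close to the value with all cells. Other neutrophil genes of muscle were split, with Ngp at -0.52, Camp at -0.44 and S100a9 at -0.60, but Elane at -5.74 and Prtn3 at -4.13. In spleen, S100a8 was at 757, 604 and 667 CPM in the B cells, monocytes and NK cells of healthy mice and at 1959, 2068 and 2074 CPM in those of arthritic mice. These types therefore differed little from each other in either group. The part of transcripts taken up from other cells in these values was not tested. Over 36 pairs of organ and cell type, 8 shares did not overlap between the groups and none passed the exact permutation test, which cannot go below 0.1 with 3 mice against 3 (smallest adjusted p = 0.554).

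MHC class II genes were lower in 4 organs, whereas the class I pathway had higher medians in joint (0.74) and spleen (0.40) and lower ones in lung (-0.22) and skin (-0.46). The 9 class II genes summed to 2145 and 4699 CPM in healthy and 1128, 1481 and 299 CPM in arthritic joints. In lung the sums were 4236 to 8122 CPM against 1578 to 3855 CPM, in skin 589 to 2691 against 37 to 442 CPM, and in spleen 10681 to 14383 against 7323 to 10006 CPM. In these 4 organs every arthritic mouse lay below every healthy one. Muscle differed, with 384, 10430 and 10375 CPM in healthy mice, 3358 and 27681 CPM in S5 and S6, and 9521 CPM in the library labelled muscle of S8. The low healthy value was that of H4, which like S5 had no red cell lysis. Of the cells of S6, 75% were labelled myocytes. The part of red cell lysis and of cell types in these values was not tested. The 9 members tested in spleen were all lower, 3 of them without overlap, with a median log2 fold change of -0.60. Medians were -1.57 in joint, -0.97 in lung and -2.20 in skin, over 3 tested members each, and 0.98 over 9 members in muscle (0.85 without the library labelled muscle of S8).

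Cd74, the invariant chain that guides class II molecules, had 8000, 6268 and 6141 CPM in healthy and 4517, 3855 and 5056 CPM in arthritic spleens (log2 fold change -0.60, adjusted p = 0.706). In skin Cd74 had 1765, 179 and 469 CPM against 65.7, 49 and 129 CPM (-3.04, adjusted p = 0.307), and in joint 1458 and 2730 CPM against 918, 898 and 296 CPM (-1.55). H2-Aa, an α-chain of the class II molecule, was lower without overlap in joint (-1.57), lung (-1.28) and skin (-2.20), with no adjusted p below 0.05. Within cell types, the mean of Cd74 was 8863 CPM in healthy and 1704 CPM in arthritic joint macrophages, 6955 and 5548 CPM in spleen B cells, and 6486 and 3888 CPM in spleen monocytes. The groups did not overlap in these 3 types, whereas those of lung macrophages overlapped. The joint macrophages came from 2 healthy mice, with 17 such cells each, and from 2 arthritic mice, S5 and S8. H2-Aa was 2149 and 742 CPM in lung macrophages and 3639 and 3607 CPM in spleen B cells, so that the B cells of the spleen hardly differed for this gene.

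Immunoglobulin transcripts were lower in arthritic spleens. The constant region genes summed to 34873, 23722 and 32839 CPM in healthy and 11873, 12382 and 16465 CPM in arthritic spleens. Of 9 tested, 6 were lower without overlap, and the median log2 fold change was -0.997. Jchain, the joining chain of secreted IgM and IgA, had 5682, 3244 and 5218 CPM in healthy and 1350, 250 and 1000 CPM in arthritic spleens (-2.43, adjusted p = 0.406). Igkc, the kappa light chain, had 22267, 12172 and 15344 CPM against 6529, 7210 and 11594 CPM (-0.98). B-cell-labelled cells made up 46.6% to 56.2% of the spleen cells in healthy and 44.8% to 53.6% in arthritic mice. In muscle the median of 7 tested members was 1.56, and it was -0.13 over 8 members without the library labelled muscle of S8, which alone had 15676 CPM of Igkc.

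In joint, the gene that passed the test was Angptl7 (chr4:148495183-148500460), a secreted angiopoietin-like protein of connective tissue. It fell from 2142 and 1832 CPM in H4 and H7 to 87.4, 56.1 and 127 CPM in S5, S6 and S8 (log2 fold change -4.47, SE 0.63, adjusted p = 0.0331). Leaving out any arthritic mouse removed the call. Leaving out H4 or H7 left 1 healthy joint, so no count of calls is given for these fits. Over all 13 alternatives the log2 fold change of Angptl7 lay between -4.79 and -4.17. The fibroblast genes Gsn (gelsolin) and Dcn (decorin) were lower without overlap at -3.97 (adjusted p = 0.0918) and -2.50 (adjusted p = 0.358). Fibroblast-labelled cells were 50.9% and 52.8% of healthy joint cells and 4.82% to 16.8% of arthritic ones. Whether Angptl7 fell within fibroblasts was not tested. Among genes that were higher, the chemokine Ccl3 had 40.2 and 17.6 CPM against 546, 262 and 423 CPM (3.73, adjusted p = 0.191), and the acute phase protein haptoglobin, Hp, had 101 and 141 CPM against 1367, 487 and 571 CPM (2.78, adjusted p = 0.296).

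Cytokines that drive arthritis were hardly captured. Of 12 cytokine genes, 2 were tested in muscle, 1 in skin, 1 in spleen and none in joint or lung. Tnf, tumour necrosis factor, had 94.8, 99.3 and 92.4 CPM in healthy muscles and 63.2, 49.8 and 40.7 CPM in the libraries of S5, S6 and S8 (log2 fold change -0.88, adjusted p = 0.999). Tgfb1 had a log2 fold change of 0.24 in muscle, and Il1b of -0.43 in spleen. In joint, Il1b was at 0 in both healthy mice and at 164, 74.8 and 63.5 CPM in the arthritic mice, but with too few UMIs for the test.

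**Figure D4:**
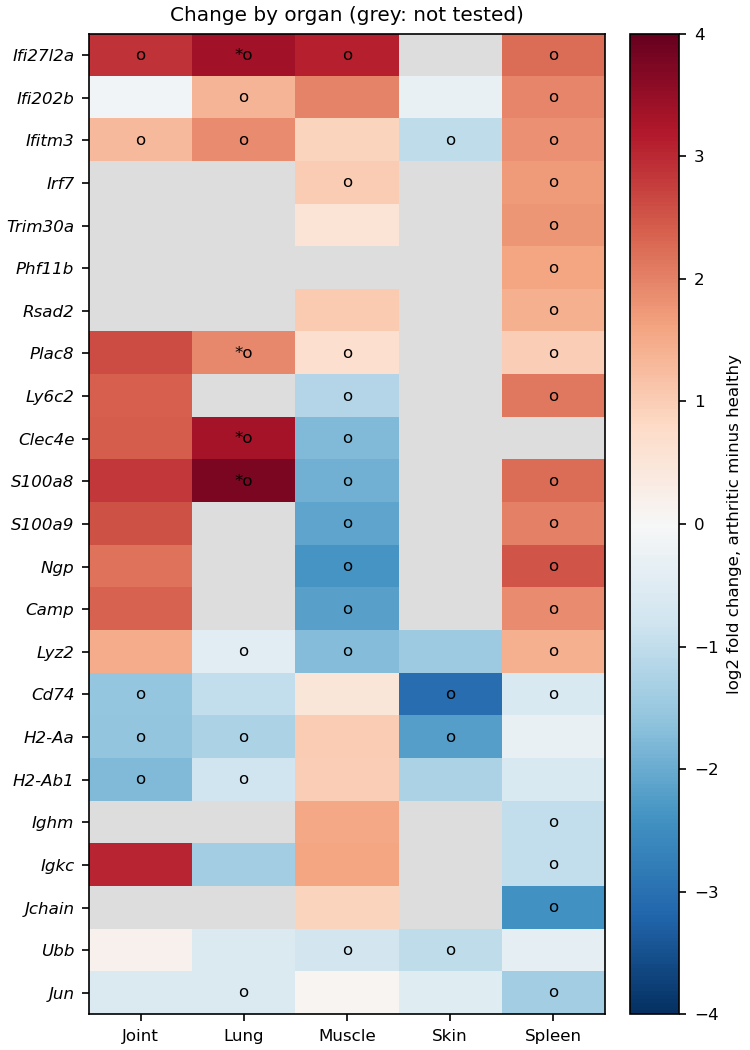
Log2 fold change, arthritic over healthy, of 23 genes (rows of the heat map) in joint, lung, muscle, skin and spleen, with colour from lower to higher, a star for an adjusted p below 0.05, a circle where the groups of mice do not overlap and grey where the gene was not tested. Ifi27l2a is higher in the 4 organs where it was tested, the neutrophil genes are higher in spleen and lower in muscle, and the class II genes are lower outside muscle.

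The direction of change was then compared over organs. Of 471 genes tested in lung, muscle, skin and spleen, 50 (10.6%) were higher and 61 (13%) were lower in arthritic mice in all 4 organs, while 360 had mixed signs. Among the 461 of these genes also tested in joint, 8 were higher and 30 lower in all 5 organs. The split depended on the scaling, since plain library sizes gave 69 higher and 28 lower genes. That scaling moved the median log2 fold change of all tested genes from 0.06 to 0.28 in muscle and from -0.03 to -0.25 in joint. Without the library labelled muscle of S8, 15 genes were higher and 59 lower, and 12 and 54 of them were shared with the first count. Leaving out mouse S8 altogether gave 21 higher and 67 lower genes among 566.

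Genes that kept their sign were of different kinds in the 2 directions. Of the 50 higher genes, 31 (62%) were annotated as pseudogenes, compared with 92 (19.5%) of all 471 genes, and 12 were protein coding. Of the 61 lower genes, 53 (86.9%) were protein coding and 3 were pseudogenes. Pseudogenes share sequence with their parent genes, mostly of ribosomal proteins, and reads can be split between the copies, so their values are uncertain. In spleen, 562 of 600 tested pseudogenes were higher, with a median log2 fold change of 0.74 and 105 higher without overlap against 0 lower. In joint 31 of 249 were higher, with a median of -0.49, and the medians of lung, muscle and skin lay between 0.13 and 0.17. When pseudogenes were left out, 24 genes were higher and 36 lower in all 4 organs, out of 381.

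**Figure D5:**
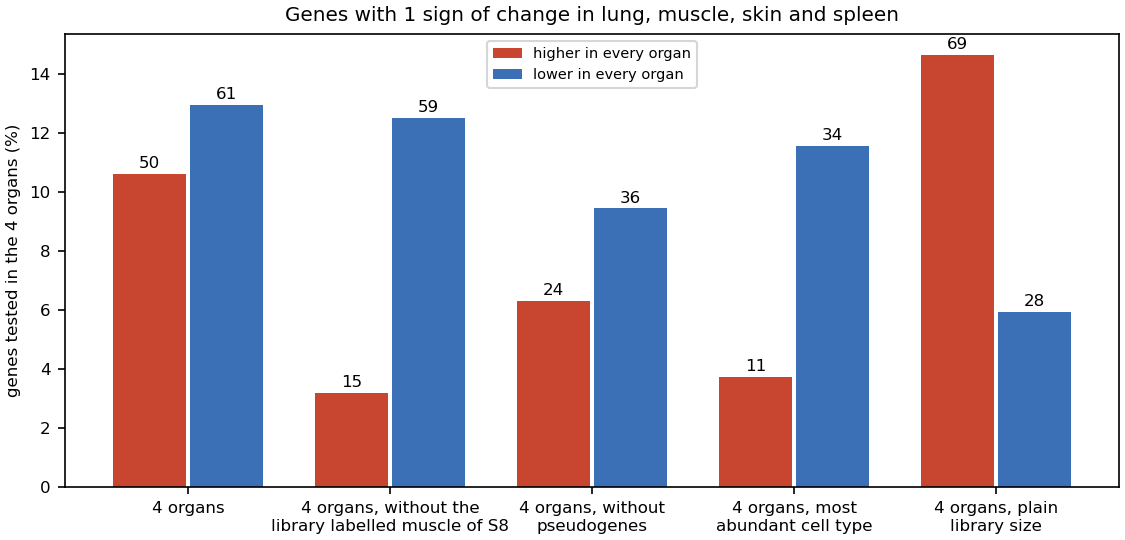
Genes with the same sign in the 4 organs, as a percentage of genes tested in all 4 (bars from 0), higher and lower in arthritic mice, for the main analysis and 4 alternatives. The bars stand for 50 higher and 61 lower genes in the main analysis, 15 and 59 without the library labelled muscle of S8, 24 and 36 without pseudogenes, 11 and 34 in the most abundant cell type and 69 and 28 with plain library sizes. For the most abundant cell type, S6 is the only arthritic muscle library.

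No gene was separated between the groups in the same direction in 3 of the 4 organs with the same sign in all 4. In 2 organs, 6 genes (1.27%) were higher and 3 (0.637%) lower without overlap, with the same sign in all 4, and these genes are named after their values were seen. The higher ones were Wfdc17 and the predicted or pseudogene entries Gm7808, Gm14861, AC158620.2, Rps19-ps6 and Gm15500. Without the library labelled muscle of S8, these 5 entries were lower in muscle, with log2 fold changes of -0.35, -0.30, -0.77, -0.24 and -0.45 in this order and with overlapping groups, so that of the 6 genes Wfdc17 (1.14) kept its sign in muscle. Wfdc17 had log2 fold changes of 1.07 in lung, 0.80 in muscle, 0.23 in skin and 1.26 in spleen, with 1.33 in joint. The lower ones were Ubb, a polyubiquitin gene, Map1lc3b, which encodes an LC3 protein of the autophagosome, and Lars2, the mitochondrial leucine tRNA synthetase, and all 3 stayed lower in muscle without that library (-0.63, -0.65 and -0.43). Ubb had log2 fold changes of -0.58 in lung, -0.74 in muscle, -1.01 in skin and -0.38 in spleen, but 0.16 in joint. In skin, Ubb had 12612, 7388 and 7822 CPM in healthy and 5063, 4017 and 4683 CPM in arthritic mice (adjusted p = 0.185).

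The stress gene Gadd45g was also lower in all 4 organs (mean log2 fold change -0.78). Lgals3, the lectin galectin 3, was lower without overlap in 3 organs (lung -0.64, muscle -0.97, skin -0.78) but higher in spleen (0.87). Gadd45g and Lgals3 were picked for description after their values were seen. Another 20 genes were separated without overlap in opposite directions in different organs, Ifitm3 and Lyz2 among them. Immediate early genes, which respond to stimulation and to tissue dissociation, had medians of -0.66 in spleen and -0.47 in skin, where 8 of 17 and 3 of 17 tested members were lower without overlap, and of -0.02 in lung and 0.18 in muscle. Jun had 3025, 1570 and 1426 CPM in healthy and 740, 615 and 934 CPM in arthritic spleens (-1.40). Whether handling of the organs took part in these differences was not tested.

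Averaged over the 4 organs of each mouse, 0 of 471 genes passed the test (0%, limma, 51 genes at an unadjusted p below 0.05), and the edgeR test of the mean effect over the 24 samples also called 0. The groups of mice did not overlap for 15 higher (3.18%) and 61 lower (13%) genes. After Ifi202b, the genes of smallest p were in order Cd74 (log2 difference -0.72), Ubb (-0.64) and Lyz2 (-0.68), each with an adjusted p of 0.276, and H2-Aa (-0.77, adjusted p = 0.284). Ifi27l2a could not enter, since skin had too few of its UMIs. With a filter over the 24 samples it entered and passed, as the 1 call among 4324 genes (2.09, adjusted p = 0.00126). Over lung, skin and spleen only, which leaves out every muscle library, H2-Aa and Cd74 passed (smallest adjusted p = 0.0270).

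The severely arthritic mice of the other experiment are given beside these values without a test, because that experiment had only 1 healthy mouse. Ifi27l2a was 341 CPM in the spleen of H3 and 2157, 2355 and 1218 CPM in S1, S2 and S3. In lung the values were 85.9 CPM in H3 and 2971, 2775 and 1735 CPM in the severe mice, and in skin 78.1 CPM against 191, 493 and 98 CPM. The scores differ between the experiments, so severity and experiment cannot be told apart.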

How the data were processed

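Seq-Well libraries of joint, lung, muscle, skin and spleen from 3 arthritic and 3 healthy mice were used (29 libraries, no joint of H6). The authors aligned the reads with STAR to the mouse genome GRCm38, counted UMIs with the Drop-seq tools, and deposited whole-number counts per gene and cell without normalization (34586 genes, 13240 cells, at least 401 UMIs and 201 genes in each cell). The labels also name other genome builds, which were not used. The authors also deposited a cell type for 12096 cells, which was kept as it stands, and doublets were not removed here. The number of cells assigned to no sample was 0.

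Counts were summed per mouse and organ over the annotated cells. Within each organ, edgeR 4.0.16 was run in R 4.3.3 on the sums with its quasi-likelihood fit (TMM, filterByExpr with its defaults, Benjamini-Hochberg adjustment over all genes tested, threshold 0.05), without covariates. Effects that differ between lung, muscle, skin and spleen were tested as an interaction over 24 samples, and the mean over these organs per mouse with limma 3.58.1 (log2 CPM, prior count 2). For cell type shares, an exact two-sided permutation test over mice was used. Python 3.11.15, numpy 2.4.6, scipy 1.17.1, pandas 2.3.3 and matplotlib 3.10.9 were used for the rest. The fits were tested on simulated data. Promoter sequences came from RefSeq.

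Samples of 1 mouse come from the same animal, as the sample names show, so the mouse paired samples across organs. Arthritic and healthy mice are different animals and were not paired. The correlation of samples of 1 mouse was -0.00784 over 24 samples and 0.0128 over 29 samples.

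The named genes were, in each organ, at most the 5 largest changes in each direction past the threshold without overlap of the mice; genes without overlap in the same direction in at least 3 of the 4 organs with the same sign in all; up to 10 genes of smallest p in the mean over organs; at most 6 genes past the threshold of the interaction; Ifi27l2a, Ly6c2, Saa3, S100a8, S100a9, Il1b, Tnf and Tgfb1; and up to 4 members of each gene list with the smallest p in any organ. Further names are said to be chosen after their values were seen. The comparison, its members and the gene lists were chosen with earlier results of these data known, so their counts are descriptions.

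The alternatives were DESeq2 1.42.0, RLE factors or plain library sizes, no filter on low counts, all deposited cells, cells of at most 6000 UMIs, the most abundant cell type, muscle without myocytes or with red cell lysis as a term, a block for the mouse, a filter over all 24 samples, a prior count of 0.5, and leaving out each mouse in turn. Leaving out granulocytes, pseudogenes, the library labelled muscle of S8, or all muscle libraries was added after seeing the data.

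Some genes are not reported here.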

Additional observations from a re-analysis of the deposited data

Results flagged for a closer look

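Only the named genes were searched here, apart from those named solely as members of a gene list. Of these, 6 genes lay above all healthy mice in every arthritic mouse in 1 organ and below all healthy mice in another. The difference between organs was tested for them as the interaction of organ and disease in edgeR, over the 4324 genes that passed the filter over the 24 samples of lung, muscle, skin and spleen. S100a8 was higher in lung and spleen and lower in muscle (adjusted p = 0.00697). Ly6c2, a surface protein of inflammatory monocytes, was higher in spleen, with 101, 26 and 33.6 CPM in healthy and 190, 404 and 217 CPM in arthritic mice, and lower in muscle, with 445, 337 and 379 CPM against 237, 111 and 169 CPM (adjusted p = 0.0106). S100a9, the partner of S100a8, was higher in spleen and lower in muscle (adjusted p = 0.0179). Clec4e was higher in lung and lower in muscle, where it had 161, 117 and 137 CPM in healthy mice and 60.1, 50.9 and 0 CPM in the libraries of S5, S6 and S8, and its difference between organs did not pass (adjusted p = 0.119). Lyz2 was higher in spleen and lower in lung and muscle, and did not pass either (adjusted p = 0.119). S100a11 was higher in spleen and lower in skin, with an adjusted p of 1.

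Of the 471 genes tested in lung, muscle, skin and spleen, 20 were separated in opposite directions in different organs, Ifitm3 among them. All 6 genes named above are expressed in myeloid cells, but S100a8, S100a9 and Ly6c2 had been picked beforehand, so this is a description. The muscle direction of these genes includes the library labelled muscle of S8, whose cells resemble those of the spleen. Without it, the muscle log2 fold changes were -1.98 for S100a8, -2.11 for S100a9, -1.19 for Ly6c2 and -1.34 for Clec4e, each without overlap. The interaction itself was not refitted over the 4324 genes without that library.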

How the results depend on the processing

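The counts of calls depended on the setting. DESeq2 called 23 genes in joint, 5 in lung, 20 in muscle, 3 in skin and 11 in spleen. Without a filter on low counts, 24 genes were called in joint, 12 in lung, 32 in muscle, 16 in skin and 65 in spleen. Plain library sizes gave 0 in joint, and all deposited cells gave 0 in joint and 3 in lung. The most abundant cell type gave 4 in lung, muscle without myocytes gave 2, and muscle with red cell lysis as a term gave 9. In muscle the most abundant type left S6 as the only arthritic library, so no count is given. Leaving out pseudogenes, an alternative added after seeing the data, gave 2 in joint and 3 in spleen. Leaving out 1 mouse at a time gave 0 to 25 calls in joint, 0 to 19 in lung, 0 in muscle, 0 to 4 in skin and 0 to 3 in spleen, 0 to 1 in the interaction and in the mean over organs, and 88 to 133 genes with the same sign in 4 organs. The filter over 24 samples gave 7 calls in the interaction and 1 in the mean over organs, and the mean over lung, skin and spleen gave 2. The most abundant cell type, with S6 as the only arthritic muscle, gave 45 genes of the same sign in 4 organs. The analysis without pseudogenes gave 60 and that without muscle 170. The causes were not tested.

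Over the named genes in single organs, 1376 alternative values kept direction and side of the threshold, 54 passed it newly, 37 lost it and 11 changed sign. These counts include fits with 1 mouse in a group. The fit of muscle cells labelled myocytes, the most abundant type there, had S6 as its only arthritic library, against H6 and H7. The other muscle libraries held fewer than 10 such cells. In that fit, Atp6v1e1 (0.41), Camp (0.88), Lyz2 (0.79), Ngp (0.25), S100a8 (0.60) and S100a9 (0.11) were higher on the log2 scale. Without granulocytes, Hp (0.29) and Lcn2 (0.32) were higher in muscle. Tgfb1 in muscle was between -0.068 (without S6) and 0.45 (without S5) when 1 mouse was left out, and -0.18 without myocytes. Il1b in spleen was between -0.95 (without S6) and 0.084 (without S8). RLE factors and plain library sizes changed the sign of no named gene. The median of the ribosomal protein genes in muscle was -0.09 with TMM and 0.13 with plain library sizes.

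With the mouse as a replicate block, 0 genes were called in the interaction (smallest adjusted p 0.42) and 0 in the mean over organs (0.335 over 24 samples, 0.726 over 29), as without it. The block was fitted for genes that passed the filter in each organ, and not for the 7 and the 1 calls with the filter over 24 samples. Replicate numbers do not pair healthy and arthritic mice, which are different animals. The most abundant cell type could not be fitted in joint, where healthy mice had too few granulocytes.

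The lung sums held as few as 17748 UMIs, and 563 genes were tested there. Without the filter, genes of few UMIs such as S100a9, Ly6c2 and Saa3 were among the 12 called there.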

Other observations

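In muscle, all 10 tested members of the collagen and matrix list had higher values in arthritic mice, with a median log2 fold change of 1.61, and in 17 tested members the median was 2.30 without the library labelled muscle of S8. The share of fibroblast-labelled cells in muscle was 3.78% to 13.1% in healthy mice, 50% in S5, 4.27% in S6 and 0% in the library of S8. In skin all 9 tested members were lower, with a median of -0.58, and fibroblast-labelled cells were 30.8% to 43.3% in healthy and 14.5% to 28.9% in arthritic mice. The part of these shares in the matrix values was not tested. Members of the MHC class I pathway had a median of 0.40 over 13 tested genes in spleen, 5 of them higher without overlap, and 0.39 over 14 in muscle. Psmb9, a subunit of the immunoproteasome, had 28.4, 17.3 and 32.8 CPM in healthy muscles and 66.4, 57.6 and 145 CPM in the libraries of S5, S6 and S8 (log2 fold change 1.71, adjusted p = 0.999, edgeR), and 1.20 without that of S8. Ribosomal protein genes were lower in 55 of 57 tested members in joint, 18 of them without overlap, with a median of -0.51, and had medians of -0.12 in lung and 0.03 in spleen.

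Lyz2, the lysozyme of myeloid cells, was higher in arthritic spleen monocytes (mean 9874 against 3701 CPM of the type's UMIs) and lower in lung macrophages (14155 against 19615 CPM) and muscle macrophages (7533 against 18830 CPM), without overlap between the groups in each of these cell types. The arthritic muscle macrophages came from S5 and S6 only. No test was made within cell types.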
